A study of Mus musculus with 10 samples.

Results

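Of the 8 genes considered here, the bile duct markers Krt19, Krt7, Epcam, Sox9 and Spp1 and the keratins Krt8, Krt18 and Krt23, 7 had at least 1 probe set that the platform annotation gives a single gene symbol, out of 18193 genes with one, and these 7 genes were read by 12 of the 45101 probe sets. The annotation used here gives no such probe set for Spp1, which encodes the secreted matrix protein osteopontin, so Spp1 was not analysed here. The genes were chosen by name, as markers of cholangiocytes, the cells that line the bile ducts, and as keratins of hepatocytes. Earlier results of these data were known at that choice.

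Liver RNA of 10 mice labelled ApoE-/-, the genotype of mice without apolipoprotein E, was hybridised to Affymetrix mouse expression arrays, 1 mouse per array. The 5 mice of the group labelled dn-cJun had received an adenovirus with a dominant negative form of cJun (arrays 16 to 20), and the 5 control mice an adenovirus with GFP, a fluorescent protein (arrays 11 to 15). cJun is a subunit of the transcription factor AP-1, and lipid homeostasis is the subject of the study's title. The labels give no age, sex, virus dose, time after infection or infected cell type.

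Some facts of the arrays touch all the values below. The signal of Apoe was 15.66 on the log2 scale in the arrays labelled dn-cJun and 10.25 in the control arrays (log2 difference 5.41, SE 0.22, limma adjusted p = 2.57e-08), which goes against the ApoE-/- label that both groups share, so the arrays are called by their labels here. Jun itself was at 10.37 in the arrays labelled dn-cJun and 10.43 in the control arrays. Controls 14 and 15 stood apart in Xist, which coats the silenced X chromosome, with 13.71 and 13.63 against 5.90 to 6.72 in the other 8 arrays, and in the Y-linked gene Eif2s3y, with 5.22 and 4.08 against 10.58 to 11.13. Results are therefore also given without these 2 arrays. The extraction entry of control 11 alone names Trizol, and this array had the highest median intensity, 127.5. The 3 prime to 5 prime signal difference of Actb, a measure of RNA integrity and labelling, was higher in all 5 arrays labelled dn-cJun (0.52 ± 0.07 in dn-cJun and 0.40 ± 0.04 in control, SD, n = 5 each, two-sided exact permutation adjusted p = 0.0159), while that of Gapdh was at -0.47 ± 0.07 in dn-cJun and -0.44 ± 0.03 in control (adjusted p = 0.405, exact permutation). The part of these differences in the results below was not tested.

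Keratins are the intermediate filament proteins of epithelia, and a filament is built from pairs of a type I and a type II keratin. Hepatocytes make the pair Krt8 (type II) and Krt18 (type I) and little else of the family, whereas cholangiocytes add Krt7 (type II) and Krt19 (type I). Bile duct cells are a small part of the liver, and their markers are commonly used to follow the ductular reaction, the expansion of duct-like cells after liver injury. In RNA of whole liver, fewer cells of a type and less RNA per cell cannot be told apart.

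Krt8 and Krt18 lie head to head on mouse chromosome 15, Krt8 on the minus strand (GRCm38.p6, chr15:101996711-102004342) and Krt18 on the plus strand (chr15:102028216-102032026). Between them are 23873 bases with no protein-coding gene in the RefSeq table. Because these genes carry the hepatocyte keratin signal and the study interferes with AP-1, the RefSeq windows around their starts (GRCm38.p6, 250 bases before and 50 after) are shown, with the letters of TATA matches in capitals. The Krt8 window is chr15:102004293-102004592 on the minus strand and the Krt18 window chr15:102027966-102028265 on the plus strand.
Krt8: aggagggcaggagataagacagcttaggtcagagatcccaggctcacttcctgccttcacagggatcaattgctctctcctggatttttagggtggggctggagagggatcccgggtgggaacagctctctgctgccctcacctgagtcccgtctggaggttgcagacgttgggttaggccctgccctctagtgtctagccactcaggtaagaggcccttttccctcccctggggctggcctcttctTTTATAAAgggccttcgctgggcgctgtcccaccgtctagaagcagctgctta
Krt18: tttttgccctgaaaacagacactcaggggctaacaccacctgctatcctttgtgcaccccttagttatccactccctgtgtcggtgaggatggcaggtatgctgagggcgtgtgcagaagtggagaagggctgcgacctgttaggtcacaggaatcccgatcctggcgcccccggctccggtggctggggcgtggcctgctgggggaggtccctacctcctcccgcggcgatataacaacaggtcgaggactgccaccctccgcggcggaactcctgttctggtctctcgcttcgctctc

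Both strands were searched for the AP-1 motif TGANTCA, the related CRE motif TGACGTCA, the GC box GGGCGG and the TATA box TATAAA. Neither the AP-1 nor the CRE motif was found in these windows, nor in those of Krt7, Krt23 and Epcam. Among all 32851 promoter windows of the same length, 7.81% hold the AP-1 motif and 1.79% the CRE motif. The Krt8 window holds TATAAA on both strands, in overlapping matches that begin at bases 248 and 250 counted from 1 at the 5′ end, and 13.6% of all windows hold that motif. These matches run from -3 to 2 and from -1 to 4 relative to the RefSeq start, so they span it. The Krt7 window holds 4 GC boxes and the Epcam window 1, against 35.7% of all windows with at least 1. No match says only that these letters are not in the window. Krt19 and Sox9 have no window here.

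None of the 7 genes passed the threshold, and none of their 12 probe sets did. The background was 0.777% of the 12736 genes tested (limma, Benjamini-Hochberg adjusted p under 0.05), with 0.345% (44 genes) higher and 0.432% (55 genes) lower in dn-cJun, and 0.329% of 45037 probe sets in a fit over every probe set without a filter on dim values. Fold changes are dn-cJun minus control on the scale log2(intensity + 16), which understates changes of dim genes. The 7 genes were at -0.89 to 0.23, 5 of them below and 2 above 0, with a median of -0.06 beside 0.0015 for all genes. The 3 lowest values were those of the keratins Krt19, Krt7 and Krt23, and Krt8 and Krt18 were at 0.09 and -0.06. One gene, Krt19, had an unadjusted p under 0.05, as did 14.9% of all genes tested. No gene and no probe set had group ranges that did not overlap, a separation seen in 4.22% of genes and 2.59% of probe sets.

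**Figure D1:**
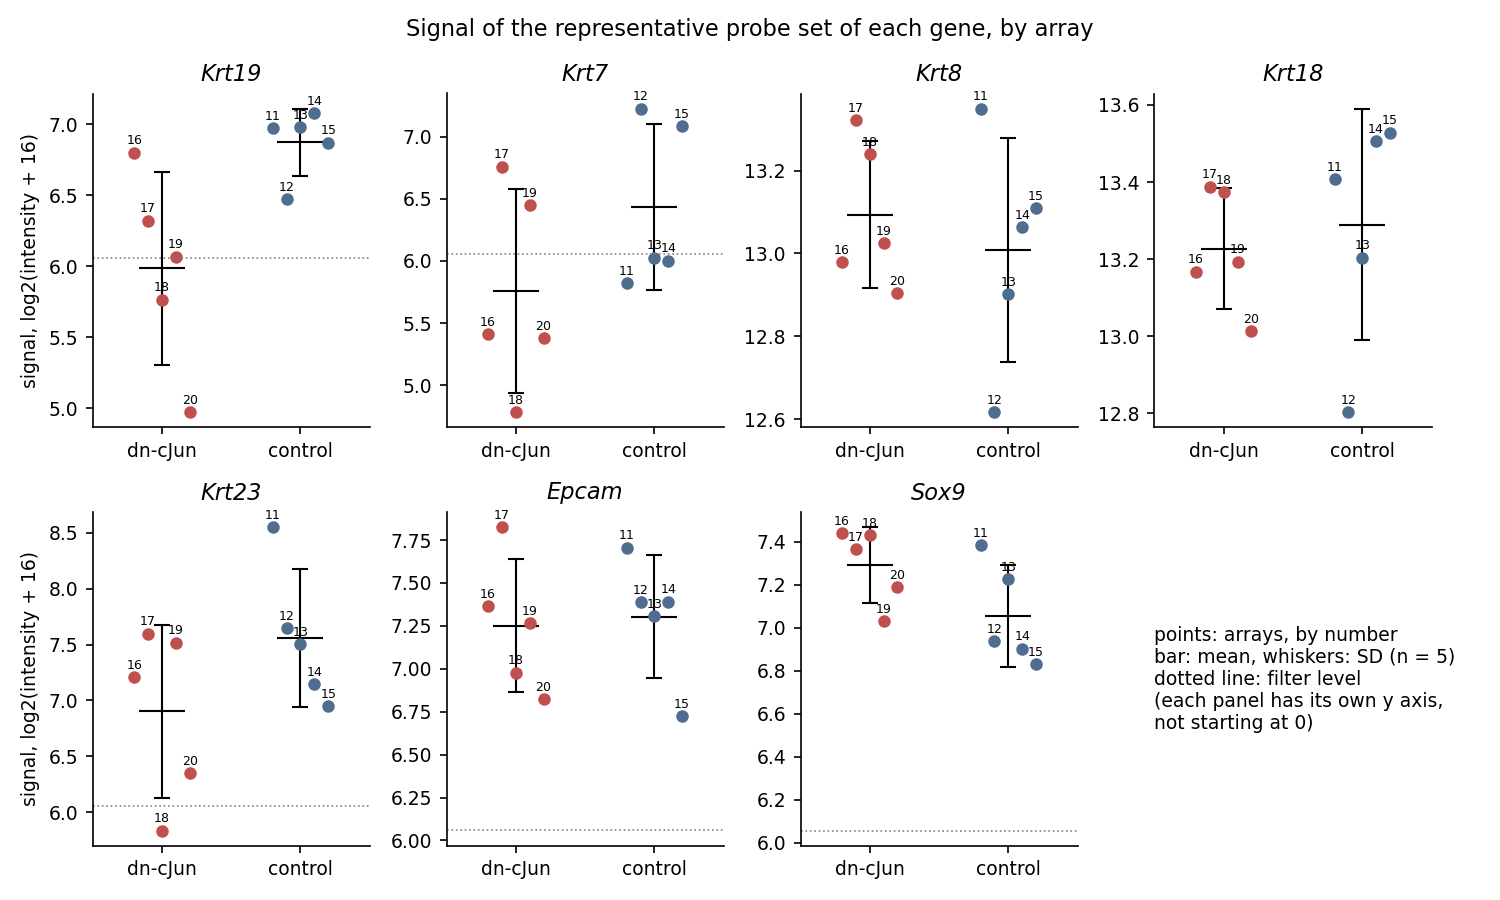
Signal of the representative probe set of each of 7 genes, on the log2(intensity + 16) scale, in the 5 arrays labelled dn-cJun (left) and the 5 control arrays (right). Points are arrays, marked by number, the bar is the mean and the whiskers the SD, and the dotted line is the level of the filter on dim genes (6.06). The 5 Krt19 values labelled dn-cJun run from 4.97 to 6.80 and the controls from 6.47 to 7.08, and the groups overlap in each panel.

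The genes fell into 2 ranges of brightness. The 3 Krt8 probe sets and that of Krt18 stood between the 97.04th and the 98.46th percentile of all probe sets on each of the 10 arrays. The other 8 probe sets had median percentiles from 14.82 to 60.6 in either group. Krt19 stood at a median percentile of 36.38 in the arrays labelled dn-cJun and 52.88 in the control arrays, and Krt7 at 24.85 and 35.59 in the same order. All 7 genes were above the filter, the 40th percentile of the mean signal of all probe sets (6.06). Krt7 passed it narrowly, with a mean of 6.09 over all arrays, and in the arrays labelled dn-cJun the means of Krt19 and Krt7 were below it, so that both genes passed through the control arrays. Detection calls were not used here.

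**Figure D2:**
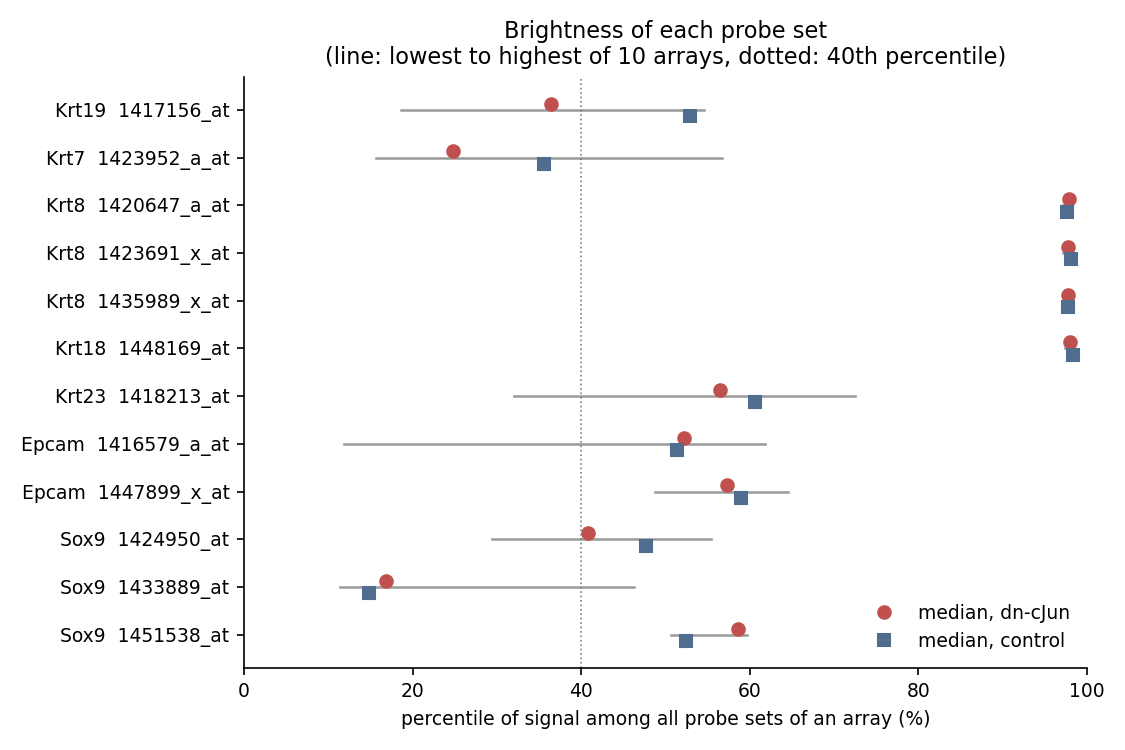
Percentile of each of the 12 probe sets among all probe sets of an array (x axis, %). Circles are medians of the arrays labelled dn-cJun, squares medians of the control arrays, grey lines run from the lowest to the highest of 10 arrays, and the dotted line marks the 40th percentile. Krt8 and Krt18 sit at 97.04 to 98.46%, and the dimmest probe set is 1 of the 3 of Sox9.

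Krt19, a type I keratin that marks bile duct cells in the adult liver, was low in most arrays labelled dn-cJun. Its signal was 6.80, 6.32, 5.76, 6.07 and 4.97 in dn-cJun 16 to 20, and 6.97, 6.47, 6.98, 7.08 and 6.87 in controls 11 to 15. Of the 5 arrays labelled dn-cJun, 4 were below the lowest control, and dn-cJun 16 lay within the control range. The means were 5.98 ± 0.68 in dn-cJun and 6.87 ± 0.24 in control (SD, n = 5 each). The log2 difference was -0.89, with a standard error of 0.32 and a 95% interval from -1.58 to -0.20. As a fold of intensity + 16, not of intensity itself, this was 0.540 between 0.335 and 0.872. The difference did not pass after adjustment (limma, unadjusted p = 0.0157, adjusted p = 0.218), and its p ranked 914th among the genes tested. Without dn-cJun 20, the lowest array, it was at -0.64 (limma adjusted p = 0.311), and with controls 14 and 15 left out at -0.81 (limma adjusted p = 0.414). The size of the Krt19 difference depended on the constant added to the intensity. With 1 in place of 16 it was -1.14, and with 64 it was -0.54 (limma adjusted p = 0.241 and 0.201).

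Krt7, the type II keratin that pairs with Krt19 in bile ducts, varied widely within both groups. Its signal was 5.41, 6.76, 4.79, 6.45 and 5.38 in dn-cJun 16 to 20, and 5.82, 7.23, 6.03, 6.002 and 7.08 in controls 11 to 15. Controls 12 and 15 were the highest and dn-cJun 16, 18 and 20 were below every control. The means were 5.76 ± 0.82 in dn-cJun and 6.43 ± 0.67 in control (SD, n = 5 each), a log2 difference of -0.67 (SE 0.44, 95% interval -1.61 to 0.27, limma adjusted p = 0.504). Without controls 14 and 15 Krt7 was below the filter. Without dn-cJun 18, its lowest array, the difference was -0.43.

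Krt23, a type I keratin reported to be induced in stressed and injured liver, was highest in control 11. Its signal was 7.21, 7.60, 5.84, 7.52 and 6.35 in dn-cJun 16 to 20, and 8.55, 7.65, 7.51, 7.15 and 6.95 in controls 11 to 15. Only dn-cJun 18 and 20 lay below the lowest control. The log2 difference was -0.66 (SE 0.37, 95% interval -1.46 to 0.14, limma adjusted p = 0.434). It was -0.41 without control 11, -0.39 without dn-cJun 18 and -0.99 without controls 14 and 15, where the unadjusted p was 0.0304 and the limma adjusted p 0.301. In that fit 13.7% of all genes had an unadjusted p under 0.05, and 0.408% passed after adjustment.

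Epcam, an adhesion molecule of bile duct and progenitor cells, was read by 2 probe sets that did not go together. The brighter one gave 7.37, 7.82, 6.98, 7.27 and 6.82 in dn-cJun 16 to 20 and 7.71, 7.39, 7.31, 7.39 and 6.72 in controls 11 to 15, a log2 difference of -0.05 (SE 0.23, 95% interval -0.54 to 0.44, limma adjusted p = 0.939). The dimmer one gave 6.30, 6.95, 6.92, 5.61 and 7.60 in dn-cJun 16 to 20 and 6.88, 4.76, 4.59, 6.89 and 7.14 in controls 11 to 15, with controls 12 and 13 far below the other 8 arrays. Its difference was 0.63 (SE 0.54, limma adjusted p = 0.757 over all probe sets), 1.26 with controls 14 and 15 left out, 0.30 without control 12, 0.26 without control 13 and 0.39 without dn-cJun 20. The control mean of this dimmer probe set, 6.05, was just below the filter level of 6.06, though its fit had no filter. Controls 12 and 13 had deposited values of 10.98 and 8.2. With controls 14 and 15 left out the brighter probe set was at -0.21. Over the 10 arrays the Pearson r of the 2 probe sets was -0.24.

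Sox9, a transcription factor of the ductal lineage, had a difference above 0 that did not pass. Its brightest probe set gave 7.44, 7.37, 7.43, 7.03 and 7.19 in dn-cJun 16 to 20, and 7.39, 6.94, 7.23, 6.90 and 6.83 in controls 11 to 15. All 5 arrays labelled dn-cJun were above the median control, and the groups overlapped through controls 11 and 13. The log2 difference was 0.23 (SE 0.18, 95% interval -0.14 to 0.61, limma adjusted p = 0.583), 0.11 when controls 14 and 15 were left out, 0.05 without scaling and 0.04 with its probe sets averaged. The other Sox9 probe sets were at -0.17 (SE 0.32) and 0.04 (SE 0.44), and the r between the Sox9 probe sets over the arrays lay between -0.13 and 0.20. The last of them was the only probe set of the 12 below the filter.

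**Figure D3:**
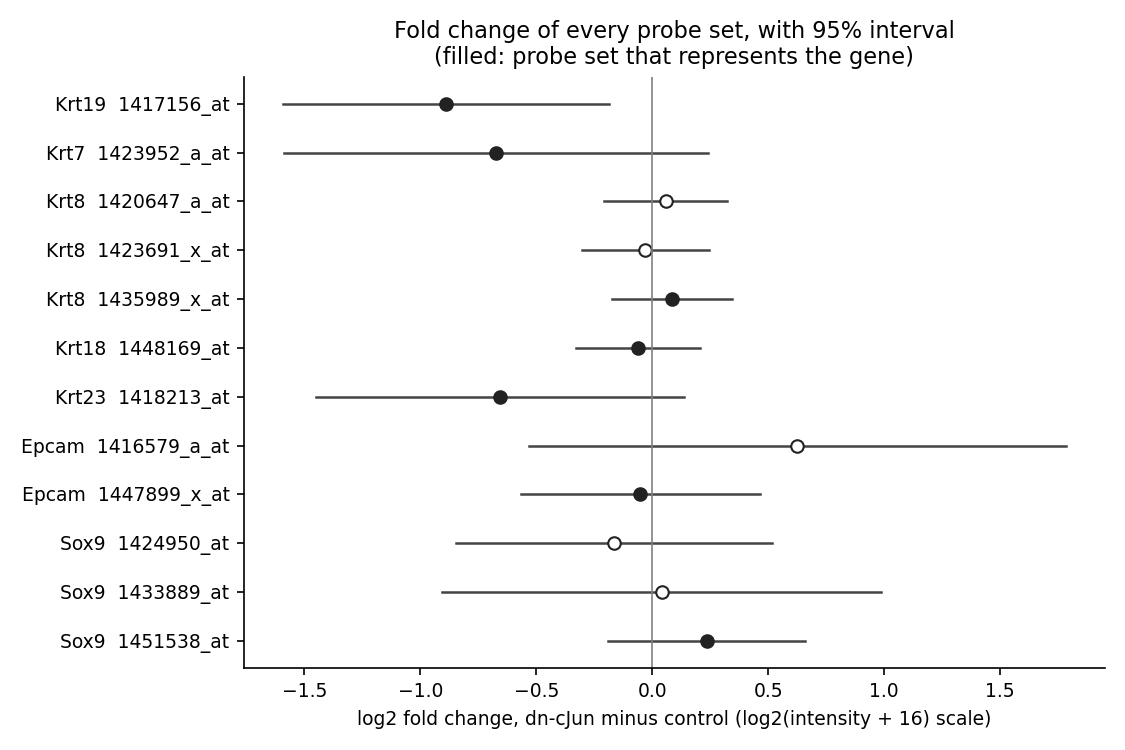
Log2 fold change, dn-cJun minus control, of each of the 12 probe sets (points) with its 95% interval (lines), from the fit over every probe set. Filled points are the probe sets that represent their gene, and only the interval of Krt19 does not cross 0 before adjustment.

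Krt8, the type II keratin of hepatocytes, did not differ beyond the spread of the arrays in any of its 3 probe sets. The brightest gave 12.98, 13.32, 13.24, 13.02 and 12.90 in dn-cJun 16 to 20, and 13.35, 12.62, 12.90, 13.06 and 13.11 in controls 11 to 15. Both the highest and the lowest value were controls, 11 and 12. The means were 13.09 ± 0.18 in dn-cJun and 13.01 ± 0.27 in control (SD, n = 5 each), a log2 difference of 0.09 (SE 0.12, limma adjusted p = 0.799). The 95% interval, before adjustment, allows a fold between 0.884 and 1.27. The other probe sets gave 0.06 (SE 0.12) and -0.03 (SE 0.13), and r between the 3 over the arrays was 0.81 to 0.89. The Krt8 probe set used here and 1 other have names ending in _x_at, which marks probes that can match further sequences. The third, without that suffix, is the one at 0.06. Without any scaling between arrays, a setting that put the median of all genes at -0.19, the Krt8 probe set used here was at -0.05, and another Krt8 probe set, then the brightest, was at -0.15. With controls 14 and 15 left out Krt8 was at 0.14.

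Krt18, the type I partner of Krt8, was likewise within the spread. Its signal was 13.17, 13.39, 13.37, 13.19 and 13.01 in dn-cJun 16 to 20, and 13.41, 12.80, 13.20, 13.51 and 13.53 in controls 11 to 15. Controls 14 and 15 were the highest arrays and control 12 the lowest. The means were 13.23 ± 0.16 in dn-cJun and 13.29 ± 0.30 in control (SD, n = 5 each), a log2 difference of -0.06 (SE 0.13, limma adjusted p = 0.862), with a 95% interval of the fold, before adjustment, from 0.792 to 1.16. Without controls 14 and 15 the difference was 0.09 (SE 0.13, limma adjusted p = 0.806).

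The paired keratins Krt8 and Krt18 had the highest correlation over the arrays among the 21 pairs of the 7 genes. Pearson's r was 0.81 (permutation p = 0.00402, adjusted over 21 pairs 0.0844) and Spearman's rho 0.75 (permutation p = 0.0173, adjusted 0.212), so the pair missed the threshold. With the signals centred on their group means r was 0.87 (permutation adjusted p = 0.0208), and without controls 14 and 15 it was 0.96 (permutation adjusted p = 0.0162). The permutations of centred signals ran across both groups and did not allow for the group means removed, so their p values can be too small. Leaving out the 2 arrays farthest from the median of Krt8, r was 0.64 (permutation adjusted p = 0.644) over the 8 arrays other than controls 11 and 12. With the other Krt8 probe sets r was 0.65 and 0.80 (permutation adjusted p = 0.309 and 0.110). The next pair was Krt23 and Epcam at 0.75 (rho 0.73, permutation adjusted p = 0.134 for r and 0.212 for rho), at 0.81 centred on group means (permutation adjusted p = 0.0445), and at 0.75 without the 2 arrays farthest from the median of Krt23 (permutation adjusted p = 0.644). The pair of bile duct keratins, Krt19 and Krt7, was at 0.36 (rho 0.26, permutation adjusted p = 0.671 for r and 0.864 for rho), and at -0.46 without the 2 arrays farthest from the median of Krt19. All genes of an array share its scaling.

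**Figure D4:**
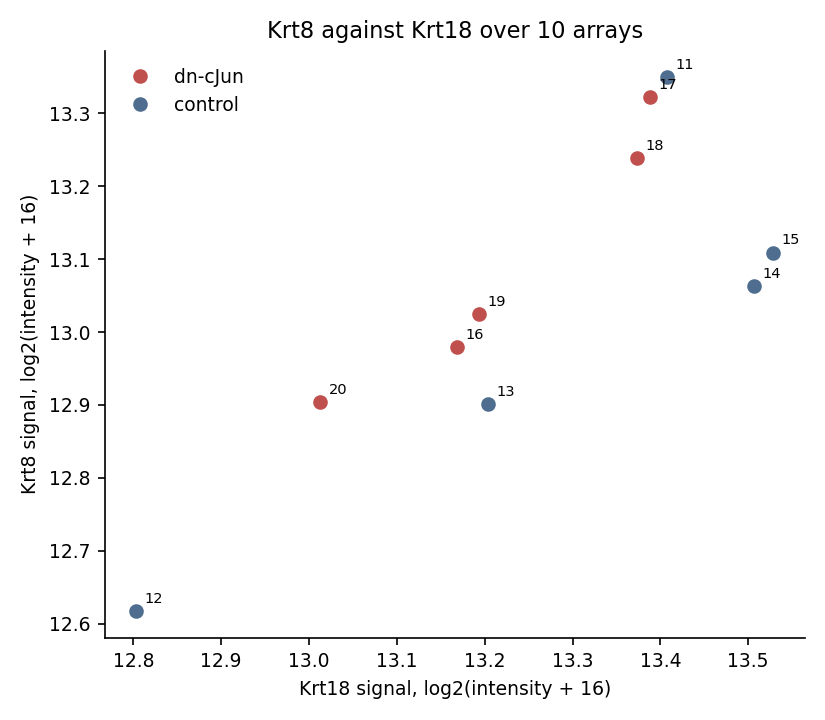
Krt8 signal (y axis) against Krt18 signal (x axis), both as log2(intensity + 16), in 5 arrays labelled dn-cJun and 5 control arrays, marked by array number. The axes do not start at 0. Control 12 is lowest in both genes, and controls 14 and 15 lie to the right of the other arrays, at Krt18 signals of 13.51 and 13.53.

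The balance of the pair within an array, log2 Krt8 minus log2 Krt18 of the deposited values, does not depend on the scaling between arrays. It was -0.14 ± 0.05 in dn-cJun and -0.27 ± 0.16 in control (SD, n = 5 each, two-sided exact permutation p = 0.143, adjusted over the 3 Krt8 probe sets 0.429). The lowest values were those of controls 14 and 15, at -0.44 and -0.38. With the other Krt8 probe sets the difference between the groups was 0.10 and 0.02 (exact permutation p = 0.397 and 0.841).

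Genes whose signal over the 10 arrays was most like that of each member were named as a description, with 3 for each. For Krt18 they were Cyrib (r = 0.95), Rhoj and Gltp (0.93 each), and for Krt8 they were Arrdc1 (0.93), Psmd1 (0.92) and 9530082P21Rik (0.91). For Krt19 they were Trappc3, Zfp90 and 4930459C07Rik (0.92 each), and for Krt7 Eif3k (0.90), Eapp (0.87) and Zfp446 (0.85). For Krt23 they were 1700097N02Rik (0.94), Plaur, the receptor of urokinase, and Nemf (0.93 each), for Epcam Hrob (0.89), Slc30a3 (0.87) and Derl1 (0.86), and for Sox9 Aldh1a1, C4bp (0.95 each) and Malat1 (0.94). They were picked as the highest among 12736 genes, so their r has no test, and the smallest limma adjusted p between the groups among them was 0.282, that of Malat1.

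The wider set of cholangiocyte markers did not move one way. Of 22 genes on the list, 19 had a probe set and 14 were above the filter, none passed over all genes (limma), 6 were above and 8 below 0, and the median log2 difference was -0.12, or -0.06 over the 10 genes that are not among the members. Of the 8 below 0, Krt19, Krt7 and Cldn7 passed the filter through the control arrays, with Cldn7 at 5.83 in dn-cJun and 6.56 in control. After Krt19 the smallest p values were those of Elf3, an epithelial transcription factor, at -0.52 (SE 0.20, limma adjusted p = 0.238), and Anxa13, an annexin of epithelia, at 0.53 (SE 0.22, limma adjusted p = 0.274). Elf3 had signals of 6.92, 7.35, 7.07, 7.64 and 7.24 in dn-cJun 16 to 20 and 7.88, 7.17, 7.77, 7.96 and 8.04 in controls 11 to 15. Anxa13 had 6.81, 7.17, 7.02, 6.61 and 6.53 in dn-cJun 16 to 20 and 6.54, 6.17, 6.27, 6.33 and 6.20 in controls 11 to 15. Only control 11 reached the dn-cJun range of Anxa13, and only control 12 that of Elf3. The mean of the list, each gene centred over the arrays, ran from -0.28 to 0.11 in dn-cJun and from -0.09 to 0.20 in control. Without controls 14 and 15 the median was -0.04, without dn-cJun 19 it was 0.0019, and without probe sets whose names end in _x_at, _s_at or _a_at it was 0.06.

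**Figure D5:**
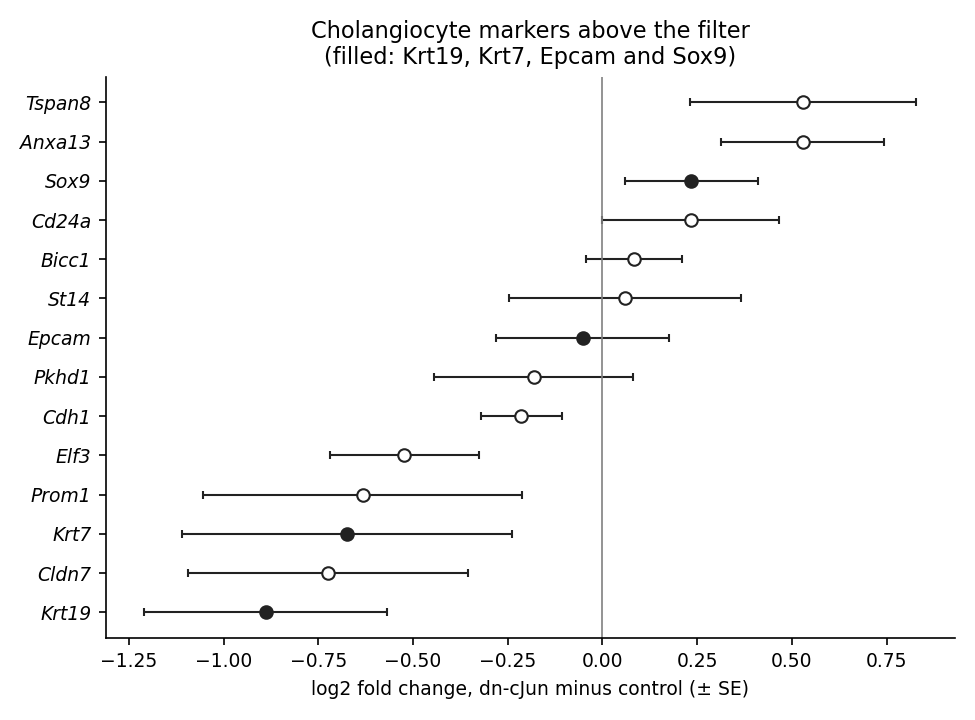
Log2 fold change, dn-cJun minus control, of the 14 cholangiocyte markers above the filter (points) with standard errors (whiskers). Filled points are Krt19, Krt7, Epcam and Sox9, and 8 of the 14 lie below 0. Among these 8, Krt19, Krt7 and Cldn7 passed the filter through the control arrays.

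Other keratins were mostly too dim to test. Of 19 keratins of the epidermis, hair and other epithelia, 8 were above the filter and none passed over all genes (limma), with a median of -0.02. The smallest p values were those of Krt4 at 0.69 (SE 0.45, limma adjusted p = 0.502), Krt16 at -0.49 (SE 0.36, limma adjusted p = 0.572) and Krt10 at 0.07 (SE 0.18). The control mean of Krt4 (5.82) and the dn-cJun mean of Krt16 (5.87) were below the filter level, so each passed it through the other group. A further list held desmosome and filament-binding genes, and also genes of other cell junctions and of the nuclear lamina that are not keratin anchors. Of its 22 genes, 21 were tested and none passed, with 10 above and 11 below 0 and a median of -0.03. The tight junction proteins Cldn12 and Cldn3 were at 0.33 (SE 0.09, limma adjusted p = 0.108) and 0.17 (SE 0.06, limma adjusted p = 0.193), and Lmnb1, a nuclear lamin, at -0.19 (SE 0.09).

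Genes that act upstream of Sox9 and of ductal fate, from the Notch, Hippo and TGF-beta pathways and the factors of hepatic lineage, had 30 of 38 tested, 16 above and 14 below 0, a median of 0.01 and no gene past the threshold (limma). Prox1, a homeobox factor of hepatocytes, came closest at -0.64 (SE 0.14, limma adjusted p = 0.0544). Its signal was 8.36, 8.16, 8.59, 8.72 and 7.98 in dn-cJun 16 to 20 and 9.08, 8.92, 8.93, 9.12 and 8.95 in controls 11 to 15, so the ranges did not overlap. Tead1, a DNA-binding partner of the Hippo effector Yap1, was at -0.55 (SE 0.15, limma adjusted p = 0.122) and Yap1 at -0.29 (SE 0.09, limma adjusted p = 0.158). With controls 14 and 15 left out these genes were at -0.61, -0.32 and -0.23 in the same order (limma adjusted p = 0.142, 0.337 and 0.380).

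Receptors of osteopontin and the enzymes that cleave it had 13 of 15 tested and none past the threshold (limma), with a median of 0.03. Itgb5, an integrin subunit, was at -0.54 (SE 0.12, limma adjusted p = 0.0546), with signals of 10.33 to 10.77 in dn-cJun and 10.83 to 11.28 in control. Mmp12, the macrophage elastase, was at -1.16 (SE 0.33, limma adjusted p = 0.132), and Itga9 at -0.31 (SE 0.15). Without controls 14 and 15, Itgb5, Mmp12 and Itga9 were at -0.57, -1.01 and -0.21 (limma adjusted p = 0.104, 0.276 and 0.669). Genes of hepatocyte injury and of Mallory bodies, the aggregates that Krt8 and Krt18 form with the adaptor Sqstm1, had 16 of 21 tested, 4 above and 12 below 0, a median of -0.25 and none past the threshold. Unadjusted, 7 of the 16 had p under 0.05, a larger share than the 14.9% of all genes. The list was chosen with earlier results of these data known, and this excess was not tested. Tnfrsf12a, the receptor of the cytokine TWEAK, was at -0.82 (SE 0.21, limma adjusted p = 0.0994), Sqstm1 at -0.40 (SE 0.11, limma adjusted p = 0.109) and the heat shock gene Hspa1a at 0.97 (SE 0.31, limma adjusted p = 0.158). Hspa1a passed the filter through the arrays labelled dn-cJun, since its control mean of 5.91 was below it. The median of this list without controls 14 and 15 was -0.09.

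Markers of the other liver cells were read in the same fit. Macrophage markers had 10 of 12 below 0 and a median of -0.24, and 2 passed as lower, Lyz2 at -0.70 (SE 0.13, limma adjusted p = 0.0294) and Cd5l at -0.57 (SE 0.11, limma adjusted p = 0.0323), while Cd68 was at -0.27. With controls 14 and 15 left out the macrophage median was -0.11 and only Lyz2 of the 12 passed (adjusted p = 0.0367 for Lyz2 and 0.105 for Cd5l, limma). Both calls ended with a term for these controls and without the eBayes trend. They also ended when control 11, 13 or 14 or dn-cJun 17, 18, 19 or 20 was left out. The call of Cd5l ended as well with equal array medians and without control 15 or dn-cJun 16. Over 24 alternatives Lyz2 passed in 15 and Cd5l in 11 (limma adjusted p up to 0.104 for Lyz2 and 0.110 for Cd5l). Both genes stayed below 0 in all 24. In none of the other 5 lists did a gene pass. Hepatocyte markers, 8 tested, had a median of 0.04, or 0.29 with arrays scaled to equal medians, where all genes had a median of -0.03, with Tat at 0.79 (SE 0.31), Hnf4a at 0.21 (SE 0.08) and Apoa1 at 0.07 (SE 0.05). Stellate cell and fibroblast markers, 10 tested, had 5 above and 5 below 0 and a median of -0.06, so they did not move one way. Those with the smallest p values were below 0, Pdgfrb at -0.55 (SE 0.18), Acta2 at -0.36 (SE 0.17) and Des at -0.74 (SE 0.35). Endothelial markers, 7 tested, were at 0.10, with Tek at 0.27 (SE 0.11), Clec4g at 0.15 and Stab2 at -0.10. Lymphocyte markers, 5 tested, were at 0.01, with Cd8a at -0.72, Nkg7 at 0.25 and Cd3g at -0.31, and mesothelial and other epithelial markers, 4 tested, were at -0.05, with Krt4 at 0.69, Krt5 at -0.08 and Msln at -0.04. The part of macrophage content in the values of the bile duct genes was not tested.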

How the data were processed

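The authors deposited probe set intensity on a linear scale for 10 arrays, made with software not given in the sources used here. Of the low values of each array, 100% are whole multiples of 1 step per array, within 0.02 steps. The step is 0.0887 in dn-cJun 17 and 0.122 in control 11, the ends of its range. The arrays' median intensity was 85.3 to 127.5, and the arrays correlated at 0.944 to 0.965. Here log2(intensity + 16) was quantile-normalized, since the medians spanned 0.50. Of 45101 probe sets, 64 were controls, 34945 had 1 gene symbol, 932 several, and 9160 are unnamed here. For each of 18193 genes the brightest probe set on average was taken, and those under the 40th percentile over the array were dropped, leaving 12736. Groups were compared with limma 3.58.1 (R 4.3.3; eBayes with intensity trend), two-sided, Benjamini-Hochberg adjusted, threshold 0.05. A second fit took all 45037 probe sets that are not controls, without filter. Correlations used 100000 permutations. On simulated data for 5 against 5 arrays over 12736 genes, the gene fit recovered 38.4% of genes changed by a log2 fold of 0.5, 72.6% at 1 and 93.6% at 2, with 4.92% false calls. The changed genes were drawn from all genes tested, whose median SE was 0.141. Krt19, Krt7 and Krt23 had an SE of 0.32, 0.44 and 0.37, so these shares do not hold for them.

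The members and lists were chosen with earlier results of these data known, controls 14 and 15 included. Named are all members, the up to 3 genes of each list with the smallest p, and the 3 genes most like each member over the arrays. Jun, Apoe, Xist and Eif2s3y are named as checks, and Cldn7 for its level beside the filter. The number of arrays limits the precision. Promoter windows are from RefSeq (GRCm38.p6), and 12 of 12 member probe sets matched that table by Entrez identifier. Alternatives covered scaling, pseudocount, filter, probe set choice, eBayes settings, array weights, arrays left out, a term for controls 14 and 15, and the threshold. The Krt8 to Krt18 balance and the other Krt8 probe sets in the correlation were added after seeing the data.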

Additional observations from a re-analysis of the deposited data

Results flagged for a closer look

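In 24 groups of 5 arrays (12 probe sets, both groups), 2 held an array far from the others by Dixon's test. Both were in the dimmest probe set of Sox9, at 6.58 in dn-cJun 17 and 6.48 in control 15. The other arrays of this probe set were at 4.57 to 5.02 in dn-cJun and 4.69 to 4.76 in control. These were the only arrays where it exceeded the filter level of 6.06.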

How the results depend on the processing

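Of the 7 genes, none that was tested passed in any of 25 alternatives, and none of their 12 probe sets in any of 21. The 60th percentile filter left 2 of the genes, dropping _x_at, _s_at and _a_at probe sets left 4, and Krt7 was under the filter in 5 further settings. Krt19 stayed below 0 in 23 alternatives, from -1.14 to -0.54, with a smallest limma adjusted p of 0.0761 (values as deposited) and -1.09 to -0.64 with 1 array left out. Krt7 and Krt23 stayed below 0 wherever they were tested, at -0.82 to -0.43 and -0.84 to -0.39 with 1 array left out. The 99 genes called became 490 as deposited (22 higher, 468 lower), 65 with equal medians, 44 with probe sets averaged, 170 with each probe set its own unit, 9 without the eBayes trend, 52 without controls 14 and 15, 156 with a term for them, 250 at an adjusted p under 0.1, and 13 (without dn-cJun 17) to 199 (without control 12) with 1 array left out. The 2 calls in the lists became 11 as deposited, 1 with equal medians, 4 with a 60th percentile filter, 4 with each probe set its own unit, 0 without the trend, 4 with robust eBayes, 4 with array weights, 1 without controls 14 and 15, 0 with a term for them, 5 at an adjusted p under 0.1 and 0 to 5 with 1 array left out. Pairs past the threshold were 0, but 2 centred on group means, where the permutation p can be too small, and 1 without controls 14 and 15. Of the directions that turned, none passed. Krt8 was at -0.15 as deposited and -0.11 to 0.11 with 1 array left out, but the first value and 5 of the others come from another Krt8 probe set, then the brightest. The same probe set as in the report was at -0.05 as deposited and -0.01 to 0.17 with 1 array left out. Krt18 was at 0.090 without controls 14 and 15 and 0.089 with a term for them. Epcam was at 0.29 with probe sets averaged, 0.042 with array weights and -0.20 to 0.056 with 1 array left out. The Krt8 probe set without the _x_at suffix was at -0.072 as deposited and -0.017 to 0.15 with 1 array left out. The other _x_at probe set of Krt8 was at 0.0066 with equal medians, 0.080 without controls 14 and 15, 0.079 with a term for them and -0.11 to 0.053 with 1 array left out. The dimmest probe set of Sox9 was at -0.049 as deposited, -0.0088 with array weights and -0.32 to 0.39 with 1 array left out. The cause of these shifts was not tested. No paired analysis was possible because the groups share no replicate numbers. Dim signal limits Krt19, Krt7, the dimmer Epcam probe set and that Sox9 probe set.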
